A study of Mus musculus with 4 samples.

Results

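The 10 genes described here encode the contractile machinery of smooth muscle, the muscle of vessel walls, ducts and hollow organs: Myh11, Myl9, Mylk, Acta2, Actg2, Tagln, Cnn1, Tpm2, Lmod1 and Des. They were taken by symbol and make up 10 of 18194 genes measured in epididymal adipose tissue, which lies next to the testis. Each gene is represented by the probe set, the group of short probes built for a transcript, with the highest mean log2 signal over 4 Affymetrix mouse genome arrays. All 10 were found, on 19 probe sets in all.

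The mice were C57Bl/6J, and each array held RNA from 1 mouse that had eaten a diet with 60% of its energy from fat for 21 weeks, starting at 9 weeks of age. High-calcium replicates 1 and 2 came from mice whose diet held 1.8% calcium with whey protein isolate. The standard-diet array came from a mouse whose diet held 0.4% calcium. No genetic change is named for any group, and calcium and whey protein changed together, so that their contributions cannot be told apart. Of 10 mice per diet, 2 per diet were profiled. The labels leave the diet of the remaining array unsettled: 2 mice per diet would make it a control, while a label of high-calcium replicate 2 carries the same wording. It is called the unlabelled array here, its values are given, and it entered no fit.

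Smooth muscle contracts when calcium entering the cell binds calmodulin and activates myosin light chain kinase, which phosphorylates the regulatory light chain and lets myosin filaments pull on actin. Its contractile genes are switched on together by serum response factor and its partner myocardin, which act at a DNA element called the CArG box. In a fat pad these genes are known from the walls of arteries and veins, and several are also active in pericytes and activated fibroblasts. The duct that carries sperm out of the testis, which runs beside this fat pad, has a thick smooth muscle coat.

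Because the members moved together across the arrays, start-site windows of 300 bases were searched for elements that such genes are known to share. RefSeq windows on build GRCm38.p6 were at hand for 7 members: Myl9, Mylk, Acta2, Cnn1, Tpm2, Lmod1 and Des. Counted strictly, with 6 bases of A or T between the outer CC and GG, a CArG box was in 1 of the 7 windows, that of Myl9, and in 1.63% of all 32851 windows. Forms with 1 C or G among the 6 inner bases, a search added after the windows were seen, brought in Acta2, whose promoter is known for such elements, for 2 of 7 windows against 9.98% of all. The MCAT element, CATTCC on either strand, was in 3 of 7 (Mylk, Acta2 and Lmod1) and in 14.7% of all windows. The GC box, GGGCGG on either strand, was in 4 of 7 (Myl9, Tpm2, Lmod1 and Des) and in 35.7% of all windows. A match is a run of letters and no shown binding site, and the Mylk window belongs to a start site 39751 bases inside that gene. Windows of 3 members are printed: Myl9 and Acta2 for their CArG boxes, and Cnn1 because it had the largest difference between replicate 1 and the standard array. Capitals mark CArG boxes of both kinds. In Myl9 the strict box starts 161 bases before the start site and a form with 1 C or G starts 99 bases before it. In Acta2 both forms hold 1 C or G and start 84 and 34 bases before the start site, with the MCAT element 146 bases before it. The Cnn1 window held none of these motifs. Myl9 is at chr2:156775214-156775513 on the plus strand, Acta2 at chr19:34255324-34255623 on the minus strand and Cnn1 at chr9:22099003-22099302 on the plus strand.
Myl9: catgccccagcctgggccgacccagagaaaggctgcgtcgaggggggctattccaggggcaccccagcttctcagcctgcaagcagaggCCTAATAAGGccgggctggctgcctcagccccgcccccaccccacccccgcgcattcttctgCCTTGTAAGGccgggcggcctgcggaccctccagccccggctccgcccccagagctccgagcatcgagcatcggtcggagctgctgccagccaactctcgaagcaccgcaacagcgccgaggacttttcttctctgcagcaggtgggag
Acta2: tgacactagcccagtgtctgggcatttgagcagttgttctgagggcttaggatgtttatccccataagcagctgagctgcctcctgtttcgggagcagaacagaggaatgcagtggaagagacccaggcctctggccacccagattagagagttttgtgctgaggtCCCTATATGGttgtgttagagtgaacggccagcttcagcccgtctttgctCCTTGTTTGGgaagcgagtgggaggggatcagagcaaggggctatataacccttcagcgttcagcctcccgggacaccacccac
Cnn1: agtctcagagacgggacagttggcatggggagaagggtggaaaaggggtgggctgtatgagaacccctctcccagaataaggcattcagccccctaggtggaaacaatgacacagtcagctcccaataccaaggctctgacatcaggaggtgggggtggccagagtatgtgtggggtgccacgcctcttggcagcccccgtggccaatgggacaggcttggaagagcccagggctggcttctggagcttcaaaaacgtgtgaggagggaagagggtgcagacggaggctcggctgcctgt

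The 10 contractile genes all had their highest signal on high-calcium replicate 1, which 47.6% of all genes did. The 9 above background there exceeded the standard array by 3.28-fold (Acta2) to 59.5-fold (Cnn1). The Cnn1 signal on the standard array, 0.0833, was near that array's median of 0.0624. High-calcium replicate 2 did not share the high signals of replicate 1: 8 of 10 genes were lower there than on the standard array, where 48.6% of all genes were. These tallies use the deposited signals as they stand; Lmod1 was above background on no array and has no measured difference, and without it 9 of 9 members were highest on replicate 1 and 7 of 9 lower on replicate 2. Acta2 and Des were the only members higher on both high-calcium arrays, as 38.6% of all genes were. The 2 mice of the high-calcium group thus lay on opposite sides of the standard-diet mouse for 7 of the 9 genes above background. For Mylk, among these 7, replicate 2 differed from the standard array by only -0.14. How many of all genes lie on opposite sides in this way was not counted. No contractile gene passed limma's test between the diets. In bulk tissue, fewer cells of a type and less RNA per cell cannot be told apart.

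Signals are intensities on the scale the authors deposited, given as log2 values. The median signal of each array was 0.0963, 0.0628, 0.0624 and 0.0585 for replicate 1, replicate 2, the standard array and the unlabelled array, and it served as the background level. Olfactory receptor genes, taken as a check on this level, had a 95th percentile between 0.845 and 1.13 times that median on 44 probe sets. By this level 9 of 10 members were above background on replicate 1 and with the standard diet, and 7 on replicate 2 and on the unlabelled array. Those 7 were above it on all 4 arrays, as were 10463 of all 18194 genes: Myh11, Myl9, Mylk, Acta2, Tagln, Tpm2 and Des. Of 10 measured adipocyte markers 10 were above background on all 4 arrays, with summed signals from 155 to 184. Fat cell transcripts were thus present on each array, which does not show whether other tissue was present too. Precision is limited by there being 4 arrays.

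**Figure D1:**
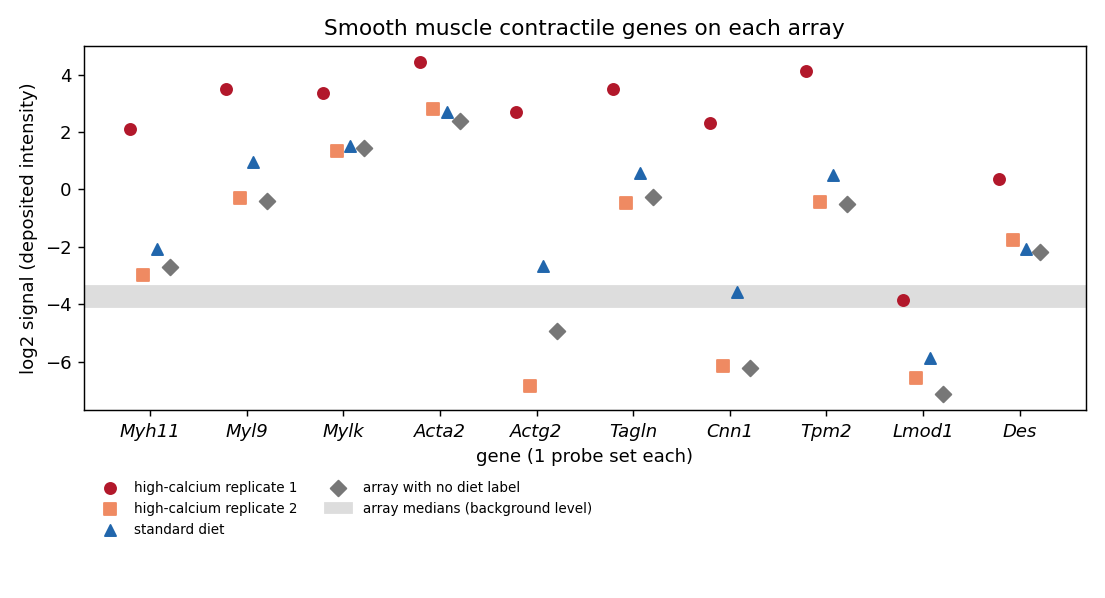
Log2 signal (vertical axis, deposited intensity) of the 10 contractile genes, with 1 point for each of the 4 arrays and a grey band over the 4 array medians that served as the background level. Replicate 1 is the highest point for every gene, and Lmod1 is the gene whose points all lie at or under the background of their array.

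Myh11, the myosin heavy chain that forms the thick filament of smooth muscle, had log2 signals of 2.12 on replicate 1, -2.98 on replicate 2, -2.08 with the standard diet and -2.72 on the unlabelled array. Replicate 1 stood 4.20 log2 units above the next array, while the other 3 arrays spanned 0.90. This amounts to 18.3-fold over the standard array and 34.2-fold over replicate 2. A second Myh11 probe set was not above background on any array, with -3.58 on replicate 1 as its highest value.

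Myl9, the regulatory light chain that is phosphorylated to start contraction, had 3.50 on replicate 1, -0.30 on replicate 2, 0.95 with the standard diet and -0.39 on the unlabelled array. The standard array lay between replicate 1 and the remaining pair, 1.25 above replicate 2. Replicate 1 was 5.88-fold above the standard array. Mylk, the kinase that phosphorylates this light chain, had 3.38, 1.35, 1.496 and 1.46 on the same arrays in that order. Here the 3 lower arrays lay within 0.14 of each other and replicate 1 was 3.68-fold above the standard array. All 3 Mylk probe sets were above background on every array and put replicate 1 above the standard array, by 1.58, 2.07 and 1.88 log2 units. The kinase gene also serves non-muscle cells.

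The pair of smooth muscle actins differed from each other in pattern. Acta2, the alpha actin of vascular smooth muscle that pericytes and myofibroblasts make too, had 4.42 on replicate 1, 2.79 on replicate 2, 2.71 with the standard diet and 2.38 on the unlabelled array. Its 3 lower arrays spanned 0.41, and replicate 1 was 3.28-fold above the standard array, the smallest difference among the 10 members. Actg2, the gamma actin typical of visceral smooth muscle, had 2.70, -6.86, -2.68 and -4.94 on the same arrays. It was above background on replicate 1 and on the standard array only, 41.8-fold higher on the former. Against replicate 2, where it was not above background, replicate 1 was at least 104-fold higher and the standard array at least 2.48-fold higher, each bound taken against the median of replicate 2. The Acta2 probe set carries a suffix for probes that can bind transcripts of other genes. Of its other probe sets 1 was above background on replicate 1 alone, at -2.02, with -4.57 on replicate 2 and -5.71 on the standard array, and the other was above background nowhere.

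Among proteins that bind the thin filament, Cnn1, the calponin that restrains myosin activity and marks mature smooth muscle, differed most from the standard array on replicate 1. It had 2.31 on replicate 1, -6.16 on replicate 2, -3.58 with the standard diet and -6.23 on the unlabelled array. Replicate 1 exceeded the standard array 59.5-fold and replicate 2 at least 78.9-fold. Cnn1 was above background on replicate 1 and the standard array only, and its signal of 0.0833 on the standard array was near that array's median of 0.0624. The standard array was at least 1.33-fold above replicate 2. Tagln, transgelin or SM22, an actin cross-linker, had 3.50, -0.46, 0.57 and -0.26 on the arrays in the same order. Replicate 1 was 7.66-fold above the standard array, which in turn was the second highest.

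Tpm2, the beta tropomyosin that lies along actin in smooth and skeletal muscle, had 4.11 on replicate 1, -0.44 on replicate 2, 0.49 with the standard diet and -0.52 on the unlabelled array. This was 12.3-fold between replicate 1 and the standard array. A second Tpm2 probe set, also above background on all 4 arrays, gave 18.3-fold, with 3.32, -1.34, -0.87 and -1.79. The 2 remaining Tpm2 probe sets were above background on replicate 1 only. Of these, 1 had a signal of 0.0966 there, barely over that array's median of 0.0963, so no fold is given for it. The other was at least 3.94-fold above the standard array. Lmod1, leiomodin, which seeds actin filaments in smooth muscle, was not above background on any array, with -3.86, -6.58, -5.88 and -7.12, so no fold is given for it.

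Des, desmin, the intermediate filament that ties contractile units together in all muscle types, had 0.38 on replicate 1, -1.77 on replicate 2, -2.08 with the standard diet and -2.19 on the unlabelled array. The 3 lower arrays spanned 0.43, with replicate 1 5.50-fold above the standard array. A second Des probe set was above background on replicate 1 only, at -3.33. Its signal of 0.0992 barely passed that array's median of 0.0963, so no fold is given for it. Over all 19 probe sets of the 10 genes, replicate 1 was the highest array for 19, though 3 of these probe sets were above background nowhere.

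**Figure D2:**
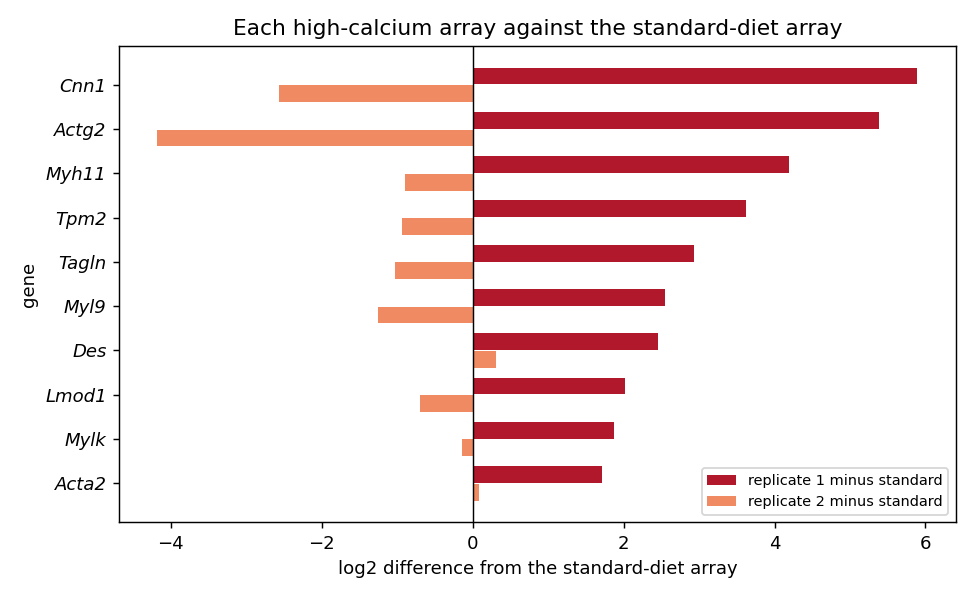
Log2 difference from the standard-diet array (horizontal axis) of high-calcium replicate 1 and high-calcium replicate 2 for each contractile gene, 1 mouse against 1 mouse. The bars of replicate 1 run from 1.71 (Acta2) to 5.89 (Cnn1), while those of replicate 2 run from -4.18 (Actg2) to 0.31 (Des). Lmod1 was under background on every array, and Actg2 and Cnn1 were on replicate 2.

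Set against the standard array, the deposited signals of 10 of 10 members were at least 2-fold higher on replicate 1, where 22.8% of all genes were. Lmod1 counts there by signals under background, which leaves 9 measured members. Dim genes make up much of that background: among 10463 genes above background on all 4 arrays, 4.38% were at least 2-fold higher on replicate 1, and 7 of the 7 members among them were. The median log2 difference was 2.75 over the 10 members and 0.19 over all genes. It was 2.56 over the 7 members above background on all 4 arrays and 0.064 over all such genes, of which the highest 1% began at 1.54. The lowest of these 7, Acta2 at 1.71, was above that mark.

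Replicate 2 gave the opposite order for most members. The median difference from the standard array was -0.92 over the 10 members and 0.013 over all genes. Members at least 2-fold lower on replicate 2 numbered 4 of 10 by deposited signal (Myl9, Actg2, Tagln and Cnn1), against 10.2% of all genes. Cnn1 was under background on replicate 2 with a bound of 1.33-fold, so that a 2-fold difference was measured for 3 of them. Higher on both high-calcium arrays than on the standard array were 2 of 10, against 38.6% of all genes. The comparisons of both high-calcium arrays share the standard array.

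Within the high-calcium pair, the deposited signal of replicate 1 was at least 2-fold above that of replicate 2 for 10 of 10 members and for 22.4% of all genes, with Lmod1 under background on both. The median gap between them was 3.88 log2 units over the members and 0.18 over all genes. For 10 of 10 members its distance to the next array exceeded the whole span of the other 3 arrays, against 18.5% of all genes, Lmod1 again by signals under background. In the 9 measured genes replicate 1 stood apart and the other 3 mice lay closer to one another.

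**Figure D3:**
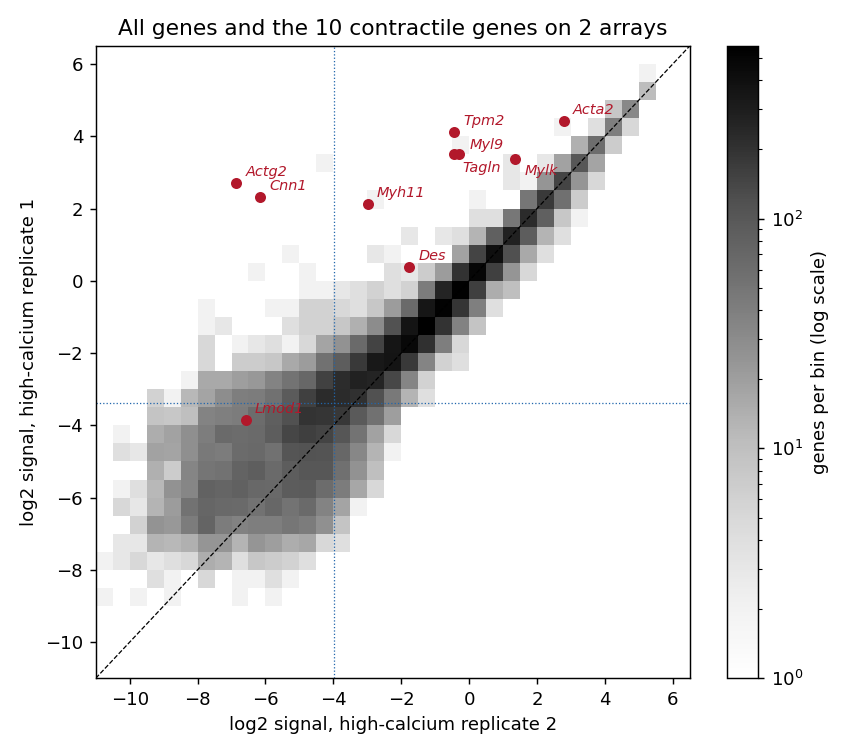
Log2 signal on high-calcium replicate 1 (vertical axis) against high-calcium replicate 2 (horizontal axis), with all 18194 genes as a grey density (log scale) and the 10 contractile genes as red points; the dashed line marks equal signal and the dotted lines the array medians. The contractile genes lie above the dashed line, by 1.63 (Acta2) to 9.56 log2 units (Actg2), although Actg2, Cnn1 and Lmod1 were under background on replicate 2.

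The fit between the diets used limma on the 3 arrays with a labelled diet, with the spread of the lone standard-diet mouse taken to be that of the high-calcium pair. It called 0 of 18194 genes, or 0% of them, at an adjusted p under 0.05, and 898 at an unadjusted p under 0.05. Centring the arrays on their medians gave 96 calls and limma with a trend and robust estimation 6, with 0 contractile genes among them. The main setting called 0 of 10 members, none of which had an unadjusted p under 0.05. Myh11 averaged -0.43 ± 3.60 (SD, n = 2) with the high-calcium diet and differed from the standard array by 1.65 (SE 2.88, adjusted p = 1 with limma). The interval at 95% ran from -9.04 to 12.3. Acta2, the member with the narrowest interval, differed by 0.90 (SE 0.97), with an interval from -2.70 to 4.50. The other 8 members had differences between 0.60 and 1.66 and an adjusted p of 1. Over the 10 members the median difference was 0.93, against 0.079 over all genes, and without replicate 1 it turned to -0.92, while without replicate 2 it was 2.75. Replicate 1 decided the direction.

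The array with no diet label was lower than the standard array for 10 of 10 members, as it was for 53.2% of all genes, and for 9 of 10 when each array was centred on its median, Mylk being the exception. Among the 7 members above background on all 4 arrays, it was the lowest array for 4 and replicate 2 for 3. Under quantile normalization, centring on array medians, an added constant of 0.05 and averaging a gene's probe sets, 10 of 10 members were higher on replicate 1 than on the standard array and 8 of 10 lower on replicate 2. With averaged probe sets Myh11 turned to 0.20 and Acta2 to -0.48 on replicate 2 minus the standard array. Centring moved the median of all genes on replicate 1 minus the standard array from 0.19 to -0.43. The members still ranged there from 1.09 (Acta2) to 5.27 (Cnn1).

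Other genes of the smooth muscle cytoskeleton moved with the members on replicate 1. Of 28 measured genes of this list 14 were at least 2-fold higher there than on the standard array, against 22.8% of all genes, and 0 lower. The median log2 difference was 1.07 on replicate 1 and -0.085 on replicate 2. Of the 23 above background on all 4 arrays 11 were at least 2-fold higher, where the background is 4.38%. Smtn, smoothelin, a marker of contractile smooth muscle, had log2 signals of -0.34 on replicate 1, -2.45 on replicate 2, -3.04 with the standard diet and -2.86 on the unlabelled array. Synm, synemin, a partner of desmin, had 0.23, -3.04, -2.30 and -3.49 on those arrays, and Csrp1, a LIM protein of the actin cytoskeleton, had 2.51, 0.48, 0.47 and 0.33. At the other end of the list Fhl1 differed by -0.56 on replicate 1, Sspn by 0.062 and Vcl, vinculin, by 0.14. The last 2 are found in many adhering cells. limma called 0 of the 28.

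Genes that carry the calcium and relaxation signals did not follow as a list. Of 20 measured, 5 were at least 2-fold higher on replicate 1, where 22.8% of all genes were, and 0 lower. Of those 5, Cacnb2 and Atp2b4 were above background on no array. The list's median was 0.36 on replicate 1 and 0.18 on replicate 2. Among the 10 above background on all 4 arrays only Pde5a, a phosphodiesterase that ends the relaxing cyclic GMP signal, passed 2-fold, at 1.14 on replicate 1 and 0.43 on replicate 2. Prkg1, the kinase that cyclic GMP activates, was at 0.60, Rhoa at -0.081 and Oxtr, the oxytocin receptor, at -0.54 on replicate 1. P2rx1, the ATP receptor through which nerves contract the duct wall, was picked out after its values were seen. It was above background on replicate 1 only, with -1.04 there, -4.91 on replicate 2, -5.35 with the standard diet and -4.91 on the unlabelled array. limma called 0 of the 20.

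Transcription factors of the smooth muscle programme were mixed. Of 12 measured, 1 was at least 2-fold higher on replicate 1, against 22.8% of all genes, and 1 lower. The lower one, Hey2, was above background on no array. The list's median was 0.15 for replicate 1 and 0.11 for replicate 2. Myocd, myocardin, was above background on replicate 1 only, with -2.96 there, -6.92 on replicate 2, -5.68 with the standard diet and -8.11 on the unlabelled array. Srf, serum response factor, was above background on all 4 arrays, with -0.96, -1.52, -1.57 and -1.41. Its replicate 1 value was the highest, 0.60 above the standard array. Mrtfa and Tead1 differed by 0.30 each on replicate 1, and Smad3 by -0.53. limma called 0 of the 12.

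Genes of the same families that work in other cells or muscles differed less on replicate 1. Of 20 such paralogs measured, 3 were at least 2-fold higher on replicate 1, against 22.8% of all genes, and 1 lower. Those 3 and the lower one were under background on the standard array. The list's medians were 0.11 on replicate 1 and 0.090 on replicate 2. Among the 15 above background on all 4 arrays 0 were 2-fold apart in either direction. Actb and Actg1, the cytoplasmic actins, picked out with Tpm4 after their values were seen, differed by 0.12 and 0.074 on replicate 1, where Acta2 and Actg2 differed by 1.71 and 5.38. Myh9 and Myh10, non-muscle myosins, differed by -0.22 and 0.70, where Myh11 differed by 4.20. Cnn2, the calponin of other cells, differed by 0.30, where Cnn1 differed by 5.89, and Tpm4 by 0.27, where Tpm2 differed by 3.62. Whether members and paralogs differ was not tested, since replicate 1 and the standard array are 1 mouse each. limma called 0 of the 20.

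**Figure D4:**
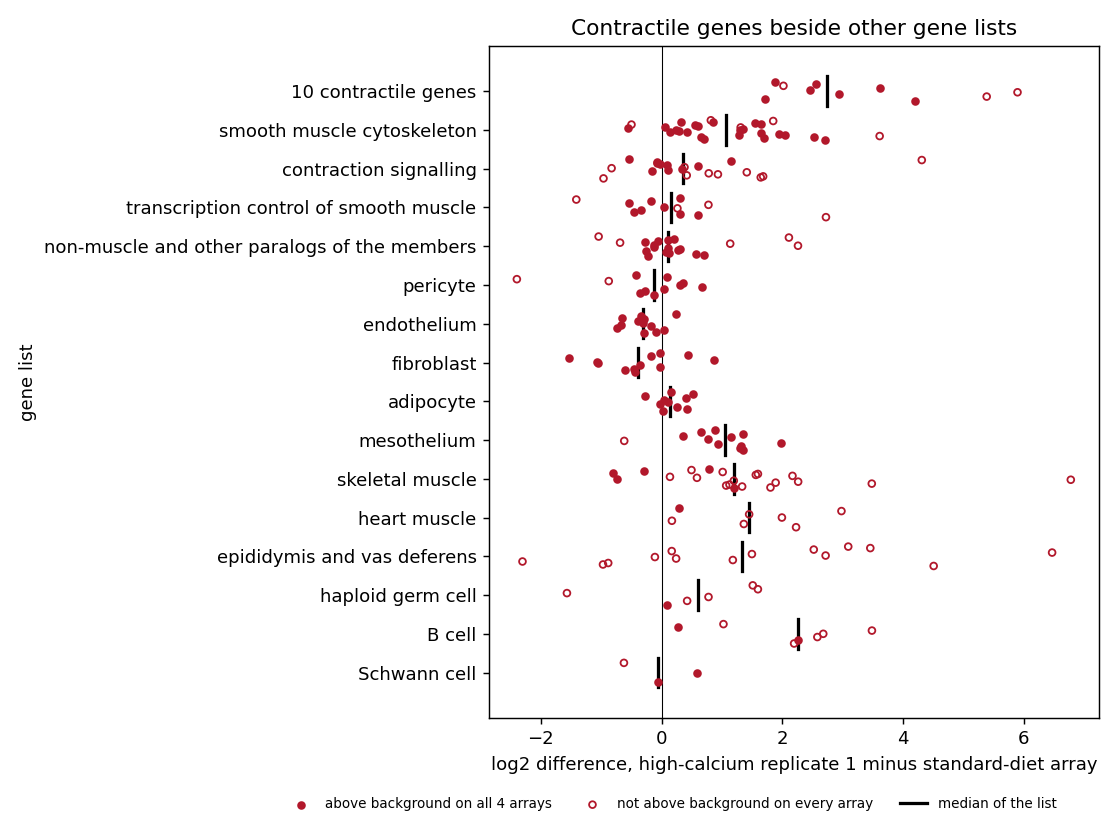
Log2 difference of high-calcium replicate 1 minus the standard-diet array (horizontal axis) for each measured gene of 16 lists, with filled points for genes above background on all 4 arrays, open points for the others and a black bar at each list's median. The 10 contractile genes have the highest median, 2.75, and B-cell genes come next at 2.26. Heart muscle (1.45), epididymis and vas deferens (1.34), skeletal muscle (1.20), smooth muscle cytoskeleton (1.07) and mesothelium (1.05) follow, in part through genes under background. Non-muscle paralogs (0.11), pericyte (-0.12), endothelium (-0.30) and adipocyte genes (0.14) lie near 0.

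Markers of vessel cells did not move with the members on replicate 1. Pericyte markers, 11 measured and 9 above background there, had a median difference of -0.12 on replicate 1 and summed signals of 9.32 on replicate 1, 7.74 on replicate 2, 9.72 with the standard diet and 7.42 on the unlabelled array. Rgs5, a defining pericyte gene, had 1.91, 1.53, 2.03 and 1.42 on these arrays. The members' summed signals were 88.9, 12.2, 14.9 and 10.7 in the same order. Endothelial markers, 12 of 12 above background, had a median of -0.30 and summed signals of 6.73, 5.49, 7.92 and 5.23. Fibroblast markers, 12 of 12 above background, had a median of -0.39 and sums of 61.7, 81.3, 82.8 and 77.8, with 3 genes at least 2-fold lower on replicate 1. For adipocyte markers the median difference was 0.14 on replicate 1 and 0.13 on replicate 2. Of 3 measured Schwann cell markers 0 were 2-fold apart, with sums from 0.697 to 0.871.

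Among markers of the organs beside the fat pad, a few genes were far higher on replicate 1 and most were not measurable. Of 14 measured genes of the epididymis and vas deferens 3 were above background on replicate 1, 2 on replicate 2, 3 with the standard diet and 2 on the unlabelled array. The summed signals were 31.5, 0.387, 2.93 and 0.400, with 9 genes above background on no array. By deposited signal 8 of the 14 were at least 2-fold higher on replicate 1 than on the standard array, as 22.8% of all genes were, and 1 lower. Of the genes so counted, only Rnase10, Spink8 and Defb42 were above background on any array. Spink8 and Defb42, picked out after their values were seen, made up nearly all of the sums on replicate 1 and the standard array: without them these were 0.539, 0.334, 0.305 and 0.336. Spink8, a protease inhibitor of the epididymis, had log2 signals of 4.42 on replicate 1, -6.92 on replicate 2, 1.33 with the standard diet and -4.63 on the unlabelled array. Defb42, a defensin of the same tract, had 3.25, -4.48, -3.21 and -5.46. For both genes replicate 1 was first and the standard array second. Actg2, Cnn1, Tagln, Myl9, Tpm2, Mylk and Myh11 had this order too, while Acta2 and Des had replicate 2 second. For Mylk the second place was narrow, with 1.496 on the standard array and 1.46 on the unlabelled array. Replicate 1 was highest for 47.6% of all genes, and how many share the full order was not counted. Lcn5, a further epididymal gene, was above background on no array, and Gpx5 was above it on replicate 2 and the unlabelled array only. Haploid germ cell genes, 6 measured, had sums of 3.88, 0.370, 2.41 and 0.211, and their median difference from the standard array was 0.60 on replicate 1 and -2.60 on replicate 2. Prm1, the sperm protamine above background on all 4 arrays, differed by 0.098 on replicate 1. The other genes of the list ran from -1.57 (Tnp2, under background on replicate 1) to 1.60 (Odf1). By deposited signal 2 of the 6 were at least 2-fold higher on replicate 1, where 22.8% of all genes were, and 1 lower. The part of these tissues in the members' values was not tested.

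Other cell types gave mixed values on replicate 1. B-cell markers, 7 of 7 above background there and 2 on all 4 arrays, had a median of 2.26 on replicate 1 and -0.47 on replicate 2, with sums of 3.04, 0.660, 0.797 and 0.524. Mesothelial markers, of the cells that line the pad, had a median of 1.05 on replicate 1 and 0.42 on replicate 2 and sums of 9.72, 3.54, 4.34 and 4.17. Within that list the keratins Krt8, Krt18 and Krt19, which duct epithelium makes too, had 0.80, 0.73 and 1.35 on replicate 1 and -2.20, -2.57 and -1.89 on replicate 2. They were lower on replicate 2 than with the standard diet, by values of -2.22, -2.14 and -1.25. Krt7, the remaining keratin of the list, went otherwise. It was under background on replicate 1, at -4.04, and differed by -0.17 on replicate 2 minus the standard array. Msln, Upk3b, Upk1b, Lrrn4 and Bnc1 of the same list were higher on replicate 2 than with the standard diet, by 0.54 to 0.86. Skeletal muscle markers, 15 of 21 above background on replicate 1, had a median of 1.20 and sums of 7.22, 3.66, 3.91 and 3.70, but the 5 above background on all 4 arrays had a median of -0.29. Tnnc2, the fast skeletal troponin C, was above background on replicate 1 only, at 1.32. Without Tnnc2 the sums were 4.72, 3.65, 3.89 and 3.66. Ckm, under background on the standard array, differed by 3.48 on replicate 1. Among the 5 above background on all 4 arrays, Acta1 differed by 1.20, Myl1 by -0.81 and Pvalb by -0.74. Myh2, Myh4 and Tnnt3 were above background nowhere. Tpm2 and Des are also genes of striated muscle. Of 7 heart muscle markers 5 were above background on no array, and Myl4, the only one above it on all 4, differed by 0.30 on replicate 1; the list's median of 1.45 rests on signals under background. Its sums were 1.43, 0.908, 1.01 and 0.800, with Myh6, Tnnt2 and Tnni3 above background nowhere. The part of these cell types in the members' values was not tested. limma called 0 genes in each of these lists and in those of the vessel, fat, epididymal, germ and Schwann cells.

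Replicate 1 stood highest in every member's profile, while the order of the other arrays and the spread differed. Centred on its own mean, the average member stood at 2.99 on replicate 1, -1.40 on replicate 2, -0.27 with the standard diet and -1.32 on the unlabelled array. That average includes signals under background, of Lmod1 on every array and of Actg2 and Cnn1 on replicate 2 and the unlabelled array. Tpm2 lay nearest to this average, at a Euclidean distance of 0.28, followed by Tagln at 0.41 and Myl9 at 0.54. Actg2 at 3.76 and Cnn1 at 3.39 lay farthest, with a wider range that rests in part on signals under background. Acta2 at 2.09 and Mylk at 1.95 had a narrower range. With 4 arrays a profile is a short description, and many genes can share it.

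Of 12948 other genes above background on at least 1 array, RIKEN, Gm and LOC symbols left out, the 10 nearest to the average member were Elfn2, Emx2, Pde1c, Odam, Ccna1, Abcg2, Azgp1, Irx1, Abcc12 and Ms4a1, at distances from 0.16 to 0.57. Most were dim: 6 were above background on replicate 1 only, so their distances rest on signals with no reliable order, and Abcg2 alone was above it on all 4 arrays. In a search added after these values were seen, of 10199 genes above background on all 4 arrays, Abcg2 was again nearest, followed by Akr1cl at 0.57, Plac8 at 0.59 and Slco2a1 at 0.67. Synm, the synemin gene of the cytoskeleton list, was among the 10 nearest at 0.81, and the tenth lay at 0.9985. Abcg2, an efflux transporter, had log2 signals of 3.83 on replicate 1, -0.80 on replicate 2, -0.041 with the standard diet and -0.51 on the unlabelled array. Emx2, a homeobox factor of the urogenital tract, had -0.15, -4.25, -3.00 and -3.93. Ms4a1, the B-cell antigen CD20, had -0.48, -4.23, -3.06 and -4.54. Only 3 of the 10 contractile genes were as near to their own average as the tenth of these genes.

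**Figure D5:**
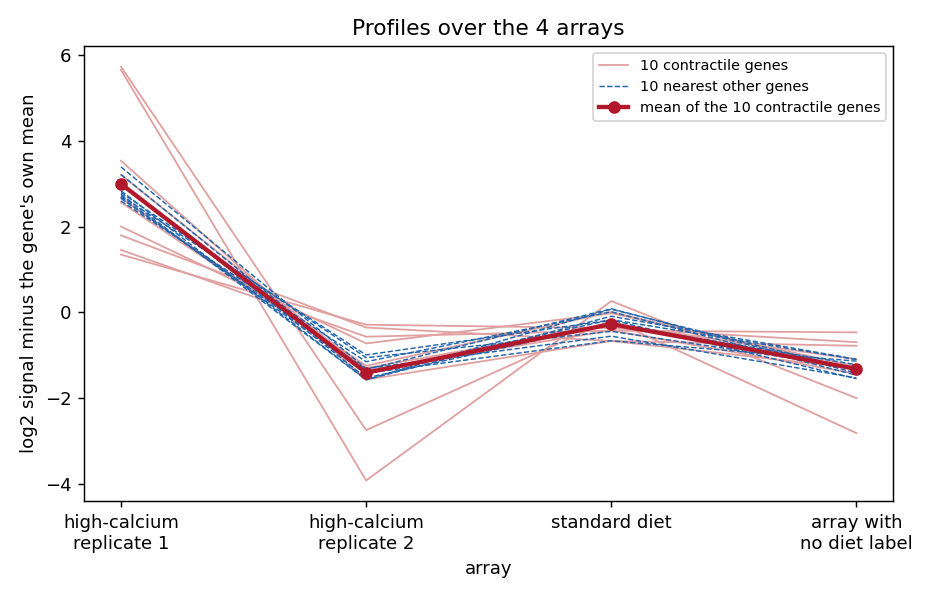
Log2 signal minus the gene's own mean (vertical axis) on the 4 arrays (horizontal axis; lines join the values of a gene and imply no order) for the 10 contractile genes, their mean and the 10 nearest other genes. The mean stands at 2.99 on replicate 1 and between -1.40 and -0.27 on the other arrays, and the 2 contractile genes that rise above 5 on replicate 1 are Cnn1 and Actg2.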

How the data were processed

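The deposited values are intensities, 1 linear signal per probe set and array. The submitters' processing notes name RMA with no version, but the authors deposited linear numbers, whereas RMA gives log2 numbers. On each array the floor is the median over 100, and the scaling step is not given in sources used here. Whether the arrays came from separate cages or batches is not given either.

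Of 45101 probe sets 34958 had 1 gene symbol in the platform annotation, 932 had several and 9211 had none; 34754 matched a RefSeq gene record (GRCm38.p6, used for names) and 0 symbols changed. Intensities were log2 transformed with no added constant. limma 3.58.1 in R 4.3.3 (lmFit, eBayes, two-sided, Benjamini-Hochberg over 18194 genes) compared 2 high-calcium arrays with 1 standard array, with 1 residual degree of freedom and 2.38 after moderation; the procedure was tested on simulated data. Differences between single arrays have no replicate check. Background was the median of each array. A bound sets a signal against that median.

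The members, the lists and the background level were chosen with earlier results of these data known. Named genes were the members, the largest and smallest differences of replicate 1 minus the standard array in each pathway list among genes above background on all 4 arrays, Myocd, Srf and the 10 nearest profiles; P2rx1, Actb, Actg1, Tpm4 and the genes named from marker lists of other cell types were picked after their values were seen. Figures used matplotlib 3.10.9 under Python 3.11.15.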

Additional observations from a re-analysis of the deposited data

How the results depend on the processing

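The absence of called genes depended on the settings: centring the arrays on their medians gave 96 called genes and limma with a trend and robust estimation gave 6, against 0 in the reported fit, also at an adjusted p threshold of 0.1, and 0 under the other alternatives run. With centring limma's moderated degrees of freedom went from 2.38 to 18200, and the cause was not tested. None of these settings called a contractile gene, and 76 of 76 single-member differences kept their direction under the alternatives other than leaving out an array. Leaving out each high-calcium array in turn gave a members' median difference from -0.92 to 2.75. The same step gave Myh11 values from -0.90 to 4.20, Myl9 from -1.25 to 2.56, Mylk from -0.14 to 1.88, Actg2 from -4.18 to 5.38, Tagln from -1.02 to 2.94, Cnn1 from -2.57 to 5.89, Tpm2 from -0.93 to 3.62 and Lmod1 from -0.70 to 2.02, while Acta2 and Des stayed above 0. The members' median for replicate 1 minus replicate 2, 3.88, was 3.27 after centring and 2.72 without probe sets that can share transcripts, a setting that drops Actg2 and takes dimmer probe sets for Acta2 and Tpm2. Of 11 marker lists of other cell types 7 had a median above 0 over both high-calcium arrays, and 5 to 8 did under the alternatives. No paired analysis was possible because the standard diet has 1 labelled array. Counting members above background on at least 1 array, with signals under an array's median set at that median, an alternative chosen after seeing the data, lowered each tally by at most 1. Values under the array medians have no reliable order, and with 1 standard array the spread within that diet is unknown.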
